A study of Rattus norvegicus with 60 samples.

Results

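The genes described here encode the main CLC chloride channels and exchangers of the brain, Clcn2 to Clcn7, and the sodium-potassium-chloride and potassium-chloride cotransporters Slc12a2 (NKCC1) and Slc12a5 (KCC2). They were taken by gene symbol: every probe set of the deposited table whose platform annotation gave one of these symbols alone was kept, a rule that uses no measured value. This gave 8 genes and 13 probe sets, of 14217 named genes and 31042 probe sets in all. Clcn3 had 4 probe sets, Clcn4 and Clcn6 had 2 each, and the other genes had 1 each.

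RNA came from the frontal cortex of adult male Long-Evans rats aged 62 to 64 postnatal days, 6 h after a single oral gavage of corn oil (1 mL/kg). The oil held no pesticide for 12 vehicle rats, deltamethrin at 0.3, 1 or 3 mg/kg for 8 rats per dose, or permethrin at 1, 10 or 100 mg/kg for 8 rats per dose. Each rat gave 1 array, so n is a count of rats. Deltamethrin is a pyrethroid insecticide with an alpha-cyano group, given as a single isomer, and permethrin lacks that group and was given as a mixture of isomers. The study dosed 2 cohorts of these rats on separate days and combined them for the arrays, and the labels do not say which rat belonged to which.

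Chloride gradients set what GABA does to a neuron. Slc12a2 brings chloride into the cell and Slc12a5, which is found almost only in neurons, takes it out, so that opening of GABA-A receptors hyperpolarizes mature cortical neurons. Clcn2 is a plasma membrane channel that opens on hyperpolarization and is found in neurons and glia, whereas Clcn3 to Clcn7 are mainly chloride-proton exchangers of endosomes, synaptic vesicles and lysosomes. Pyrethroids act first on voltage-gated sodium channels, and alpha-cyano compounds have also been reported to act on voltage-sensitive chloride channels. That gives the question of whether mRNA of chloride-handling genes differed between the compounds.

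No difference between dose groups passed the test in any member probe set. In limma fits over all probe sets with Benjamini-Hochberg adjustment, 0 of 13 were called at an adjusted p under 0.05 in any of 15 comparisons, and 0 of 13 had an unadjusted p under 0.05. Over all 31042 probe sets the called share was likewise 0% in each of the 15. The group means of a probe set spanned between 0.051 and 0.31 on the log2 scale, which for all 13 was less than the largest within-group SD of the same probe set and for 6 of 13 less than the smallest (for the other 7 it was more). In 130 exact permutation tests of single probe sets between pairs of groups (two-sided), 0 gave p under 0.05 and the lowest p was 0.169. In all 130 the ranges of the groups overlapped. These tests and ranges were taken for the members alone, so no share over all probe sets can be set beside them.

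**Figure D1:**
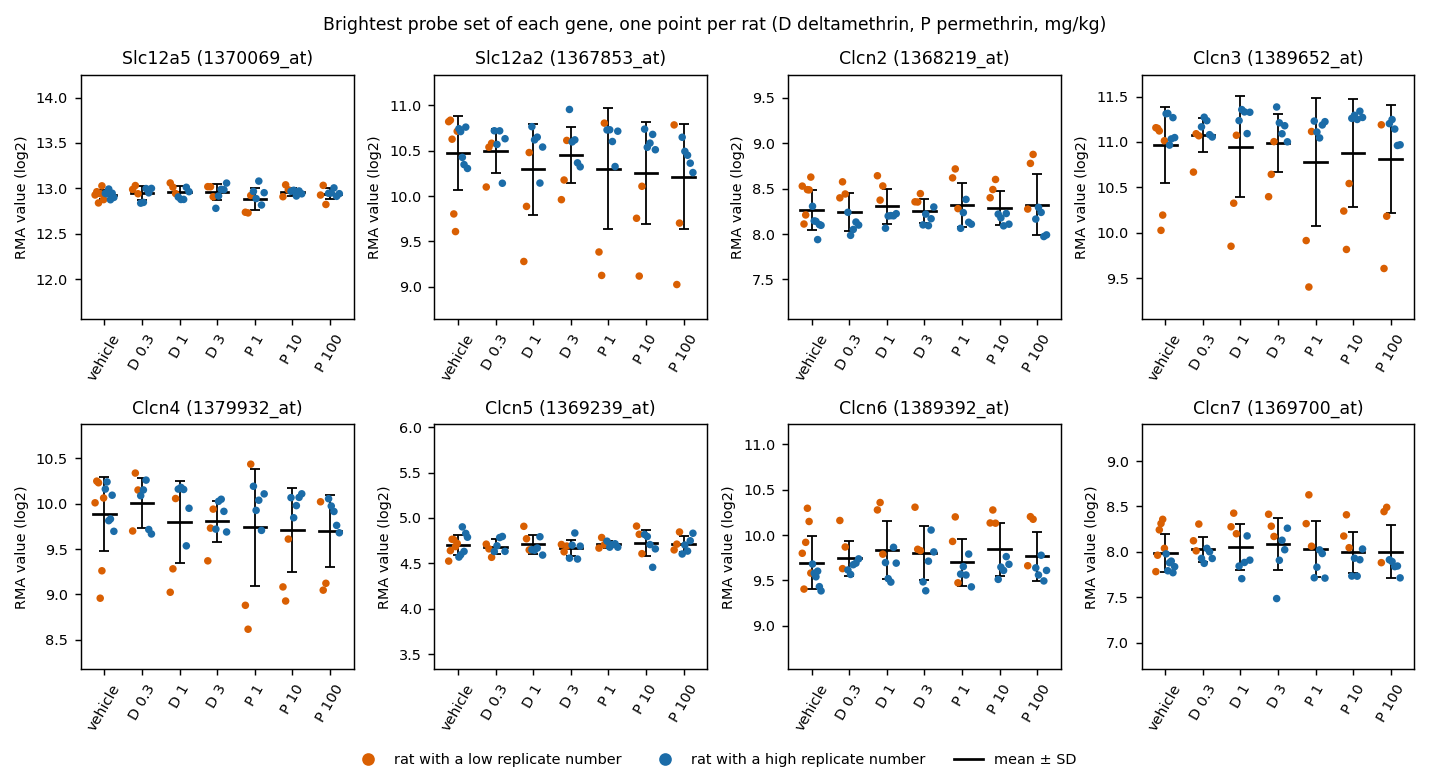
RMA values (log2, vertical axis, the same height in each panel) of the brightest probe set of each gene in the 7 dose groups (horizontal axis; D deltamethrin, P permethrin, mg/kg), with 1 point per rat and bars at the mean ± SD. Slc12a5 and Clcn5 varied little. In Slc12a2, Clcn3 and Clcn4 the lowest values of all (9.02, 9.40 and 8.62) belonged to rats with low replicate numbers. At 0.3 mg/kg deltamethrin the lowest Clcn4 value, 9.67, belonged to a rat with a high number.

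Slc12a5 was among the brightest probe sets of the array, with a mean of 12.94 that exceeded 99.8% of all probe sets, and it was steady from rat to rat. In vehicle rats its log2 values ran from 12.84 to 13.03 with a median of 12.94. After 3 mg/kg deltamethrin they ran from 12.78 to 13.06 (median 12.99), and after 100 mg/kg permethrin from 12.82 to 13.03 (median 12.94). The ranges lay almost on top of each other. The difference from vehicle was 0.028 ± 0.037 (SE) at 3 mg/kg deltamethrin and 0.011 ± 0.037 at 100 mg/kg permethrin (limma, adjusted p = 1 for both). Its lowest group mean was at 1 mg/kg permethrin (12.89 ± 0.12 SD, n = 8) and its highest at 10 mg/kg permethrin (12.96 ± 0.042 SD, n = 8), so the permethrin means did not stand in dose order. The deltamethrin means did, with differences from vehicle of 0.018, 0.025 and 0.028 at rising dose, each with an SE of 0.037 and none passing the test. The largest contrast, 1 mg/kg deltamethrin against 1 mg/kg permethrin, was 0.070 ± 0.040 with an exact permutation p of 0.172. Across the 11 comparisons of means the 95% intervals of Slc12a5 stayed between folds of 0.921 and 1.11, so changes larger than about these were outside the intervals at this number of rats.

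Slc12a2 was spread far more widely within every group. Vehicle rats ran from 9.61 to 10.84 with a median of 10.67. Rats given 3 mg/kg deltamethrin ran from 9.96 to 10.95 (median 10.48), and rats given 100 mg/kg permethrin from 9.02 to 10.78 (median 10.41). The ranges overlapped, and in all 3 groups the lowest rat lay further from the median than the highest did. The mean was 10.47 ± 0.40 (SD, n = 12) in vehicle rats, 10.45 ± 0.31 (n = 8) at 3 mg/kg deltamethrin and 10.21 ± 0.58 (n = 8) at 100 mg/kg permethrin. Its largest difference of the 6 from vehicle was at 100 mg/kg permethrin, -0.26 ± 0.22 (SE), a fold of 0.835 with a 95% interval from 0.619 to 1.13 (limma, adjusted p = 1). The exact permutation test of that difference gave p = 0.262. The value rested in large part on replicate 2 of that group, at 9.02, since without it the difference from vehicle was -0.090. At 3 mg/kg deltamethrin against 100 mg/kg permethrin the difference was 0.24 ± 0.24, with an exact permutation p of 0.353.

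The difference between the extruder and the importer in the same rat was taken as a description. Probe sets of different genes are not on a common scale, so only its change between groups can be read, not its size. It was 2.46 ± 0.43 (SD, n = 12) in vehicle rats, with values from 2.11 to 3.42. After deltamethrin the mean was 2.45 ± 0.27 at 0.3 mg/kg, 2.66 ± 0.56 at 1 mg/kg and 2.51 ± 0.39 at 3 mg/kg (n = 8 each). After permethrin it was 2.58 ± 0.57 at 1 mg/kg, 2.71 ± 0.58 at 10 mg/kg and 2.73 ± 0.59 at 100 mg/kg (n = 8 each). The means of the permethrin groups stood in dose order, and the SD of each of these groups was several times the distance between their lowest and highest means. Of the variance of this difference over the 60 rats, the variance of Slc12a2 alone amounted to 95.5%, so the difference carried little that Slc12a2 did not.

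**Figure D2:**
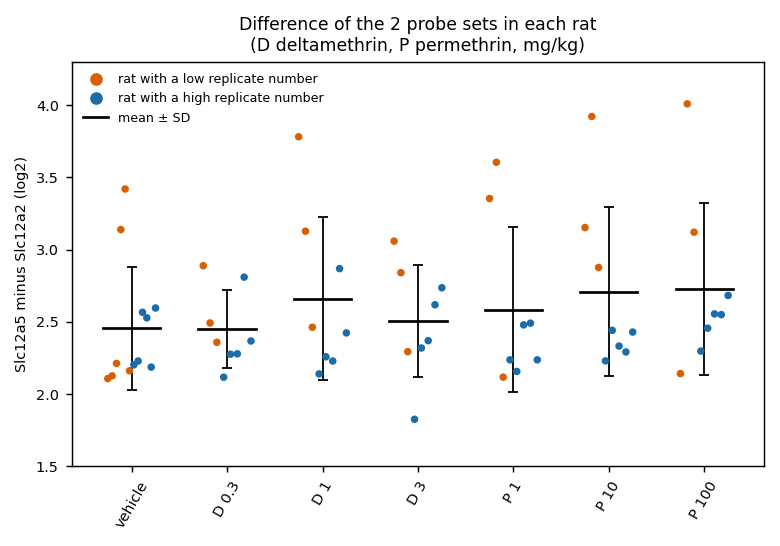
Slc12a5 minus Slc12a2 (log2, vertical axis) in each rat by dose group (horizontal axis; D deltamethrin, P permethrin, mg/kg), with bars at the mean ± SD. All 7 groups overlap between 2.23 and 2.89, and the highest values, up to 4.01, belong to rats with low replicate numbers.

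Clcn2, the plasma membrane channel of the family, was at 8.27 ± 0.22 (SD, n = 12) in vehicle rats. It ranged from 8.09 to 8.45 at 3 mg/kg deltamethrin (median 8.26) and from 7.97 to 8.88 at 100 mg/kg permethrin (median 8.26). The medians of these 2 groups were alike while permethrin rats were spread more widely. Against vehicle the difference was -0.011 ± 0.10 (SE) at 3 mg/kg deltamethrin and 0.059 ± 0.10 at 100 mg/kg permethrin (limma, adjusted p = 1 for both). The mean of the deltamethrin doses minus the mean of the permethrin doses was -0.044 ± 0.064, a fold of 0.970 with a 95% interval from 0.888 to 1.06. All of its intervals over the 11 comparisons lay between folds of 0.813 and 1.2.

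Clcn3, the vesicular and endosomal exchanger, gave its brightest signal at 1389652_at. In vehicle rats that probe set ran from 10.03 to 11.32 (median 11.09). After 3 mg/kg deltamethrin it ran from 10.40 to 11.39 (median 11.05), and after 100 mg/kg permethrin from 9.61 to 11.25 (median 11.06). The 3 medians were close to each other, and a tail of low rats set the SDs. Its largest difference between groups was 0.30 ± 0.25 (SE), deltamethrin at 0.3 mg/kg over permethrin at 1 mg/kg, a fold of 1.23 with a 95% interval from 0.874 to 1.74 (limma, adjusted p = 0.98; exact permutation p = 0.365). The other 3 Clcn3 probe sets had differences between -0.17 and 0.17 in the 11 comparisons. With the dose group means taken out, the 4 probe sets had a Pearson r of 0.75 to 0.95 with each other over 60 arrays. With the first principal component of all probe sets taken out as well, 1392453_at and 1380547_at had an r of 0.86, while 1389652_at had an r of 0.15 and 0.22 with them. These correlations are a description of probe sets measured on the same arrays.

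Clcn4, an endosomal exchanger and close relative of Clcn3, had a similar shape at 1379932_at. Vehicle rats had a mean of 9.88 ± 0.41 (SD, n = 12), against 9.80 ± 0.23 (n = 8) at 3 mg/kg deltamethrin and 9.70 ± 0.40 (n = 8) at 100 mg/kg permethrin. Its difference from vehicle was -0.079 ± 0.19 (SE) at 3 mg/kg deltamethrin and -0.19 ± 0.19 at 100 mg/kg permethrin (limma, adjusted p = 1 for both). All 3 permethrin means lay below the vehicle mean, by less than their SDs, as did those at 1 and 3 mg/kg deltamethrin. The mean at 0.3 mg/kg deltamethrin lay above it, by 0.12. The dimmer probe set 1369791_at differed from vehicle by -0.14 ± 0.16 at 3 mg/kg deltamethrin and by -0.15 ± 0.16 at 100 mg/kg permethrin, also without a call.

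Clcn5, the endosomal exchanger known mainly from the kidney, was dim, with a mean of 4.70 that exceeded only 6.37% of all probe sets. Its group means lay between 4.67 and 4.72 and its differences between -0.047 and 0.021. At that brightness a change in its mRNA may not reach the signal, and the deposited table holds no detection calls.

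Clcn6, the late endosomal exchanger expressed mainly in the nervous system, was at 9.70 ± 0.29 (SD, n = 12) in vehicle rats at 1389392_at. This was the lowest of its 7 group means, and the highest was 9.84 ± 0.29 (n = 8) at 10 mg/kg permethrin. That difference was 0.15 ± 0.13 (SE; limma, adjusted p = 0.961; exact permutation p = 0.283). The second probe set, 1394790_at, did not share the order: there vehicle was in the middle at 8.47 ± 0.18, and the difference at 10 mg/kg permethrin was -0.012 ± 0.084. Clcn7, the lysosomal exchanger whose loss causes osteopetrosis and lysosomal storage in neurons, also had its lowest mean in vehicle rats, 7.99 ± 0.21 (SD, n = 12). Its highest mean was 8.08 ± 0.29 (n = 8) at 3 mg/kg deltamethrin, a difference of 0.096 ± 0.11 (SE; limma, adjusted p = 1; exact permutation p = 0.396).

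Against vehicle, the number of member probe sets with a higher mean did not rise with dose. At 0.3, 1 and 3 mg/kg deltamethrin, 10, 6 and 4 of 13 had a higher mean than in vehicle rats, and at 1, 10 and 100 mg/kg permethrin 5, 7 and 5 did. None reached an unadjusted p under 0.05, where the share of all probe sets that did was 0.751%, 2.24% and 1.36% for the deltamethrin doses and 1.18%, 3.48% and 1.24% for the permethrin doses. The median difference over the members lay between -0.051 and 0.028 in these 6 comparisons, and that over all probe sets between -0.0095 and 0.0055. In the regression on dose, no member slope had an unadjusted p under 0.05 (share of all probe sets 1.36% for deltamethrin and 0.696% for permethrin), and none did in the test of any dose (0.725% and 1.23%). The steepest deltamethrin slope was that of Clcn4 1369791_at, -0.063 ± 0.050 (SE) per mg/kg, and the steepest permethrin slope was that of Slc12a2, -0.0017 ± 0.0021 per mg/kg.

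When the compounds were compared directly, no difference passed the test in any member. The highest doses, 3 against 100 mg/kg, are matched neither in mass nor in the behavioural effect that the study assigned to them. The study placed 1 and 10 mg/kg at the behavioural no-effect level and 0.3 and 1 mg/kg below it. Only 1 against 1 mg/kg is equal in mass. Deltamethrin was higher in 9 of 13 probe sets at 3 against 100 mg/kg, 8 at 1 against 10 mg/kg, 10 at 0.3 against 1 mg/kg and 7 at 1 against 1 mg/kg. Again 0 of 13 had an unadjusted p under 0.05 in each, where the share over all probe sets was 0.802%, 1.02%, 2.41% and 2.73% in that order. For the means over 3 doses, 11 of 13 were higher with deltamethrin, 0 had an unadjusted p under 0.05 (share 3.05%), and the largest difference was that of Clcn3 1389652_at, 0.18 ± 0.14 (SE; limma, adjusted p = 0.932). These probe sets shared arrays, and many, though not Slc12a5, moved with or against each other from rat to rat, so the 11 are not separate observations. With the first principal component of all probe sets as covariate 8 of 13 were higher. The 95% intervals bound the difference rather than show that the compounds act alike: over the 13 probe sets and 11 comparisons of means, all 143 intervals lay within 1 log2 unit of 0 and 119 within 0.5, and the widest bound was a fold of 1.74, at Clcn3 1389652_at.

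**Figure D3:**
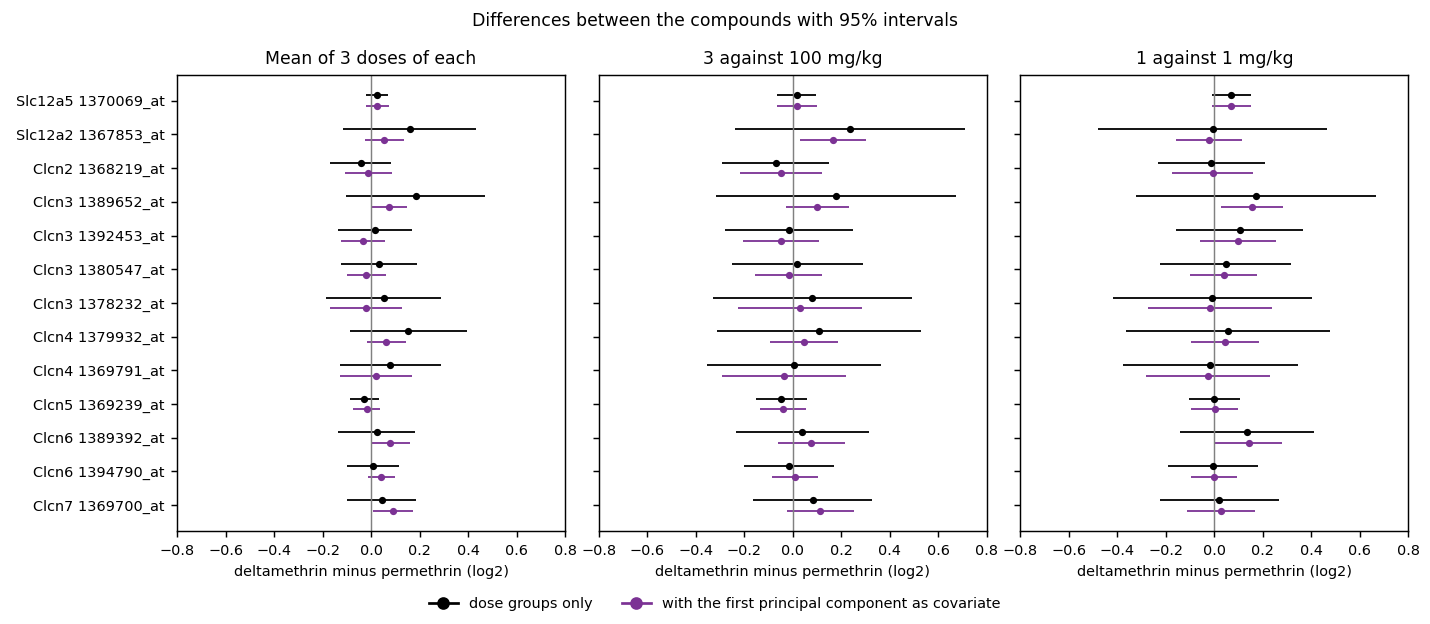
Deltamethrin minus permethrin (log2, horizontal axis) for the 13 probe sets (rows) with 95% intervals, for the mean of 3 doses of each, 3 against 100 mg/kg and 1 against 1 mg/kg, from the dose groups alone (black) and with the first principal component as covariate (purple). All black intervals hold 0, and the purple intervals of Slc12a2 (3 against 100 mg/kg), of Clcn3 1389652_at and Clcn6 1389392_at (1 against 1 mg/kg) and of Clcn7 (means) leave it out before adjustment.

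The spread between rats was itself ordered. The first principal component of all probe sets held 58% of the variance of the table, and within dose groups it took up 93.5% of the variance of Clcn3 1389652_at, 91.9% of that of Slc12a2 and 89.1% of that of Clcn4 1379932_at, all of which fell along it. It took up 75.0% of the variance of Clcn6 1389392_at, 68.3% of that of Clcn7 and 41.4% of that of Clcn2, which rose along it. Slc12a5 had none of its variance taken up (within-group SD 0.075 before and after). The component was made from all probe sets, these included, so the shares are a description. Such a split was common on the array: 6.46% of all probe sets fell along the component about as tightly as Clcn3 and Slc12a2, with a Pearson r under -0.9. A further 26.3% rose along it with an r over 0.6, and 7.16% had an r between -0.1 and 0.1. Marker lists moved with it as well: the mean over 7 microglia markers and that over 5 endothelial markers rose along the component (r of 0.88 and 0.82 over 60 arrays), and their part in the members' values was not tested.

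**Figure D4:**
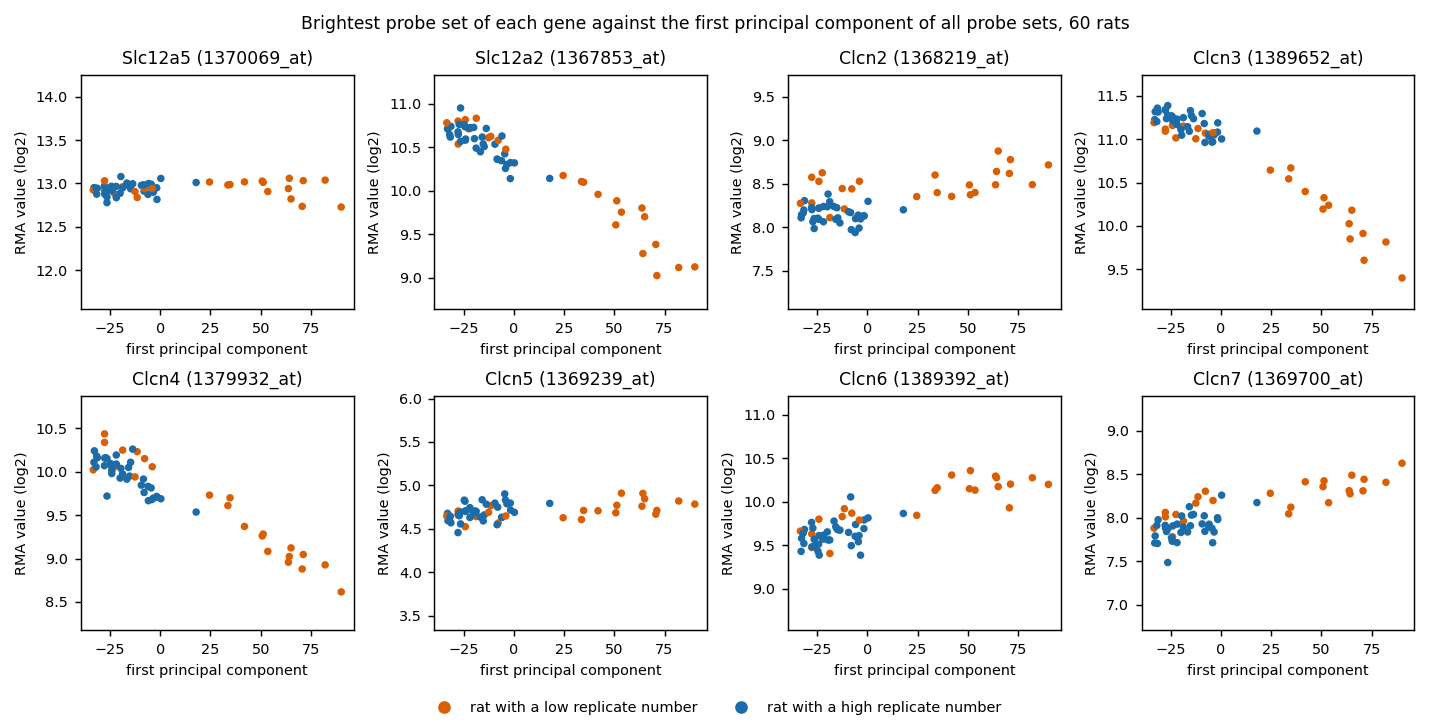
RMA value (log2, vertical axis) of the brightest probe set of each gene against the first principal component of all probe sets (horizontal axis, arbitrary units), 1 point per rat, 60 rats. Slc12a2, Clcn3 and Clcn4 fall along the component, Clcn2, Clcn6 and Clcn7 rise, and Slc12a5 stays level.

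The replicate numbers in the labels marked part of the same axis. Numbers 1 to 3 of each dose group and 1 to 6 of vehicle (24 rats) were set against the rest (36 rats), a split chosen after the values were seen. Its sizes equal those of the cohorts that the study dosed on separate days, while the labels name no cohort. Clcn3 1389652_at had a median of 10.59 in the low numbers (range 9.40 to 11.19) and 11.22 in the high numbers (10.96 to 11.39). Slc12a2 had a median of 10.10 in the low numbers (9.02 to 10.84) and 10.60 in the high (10.14 to 10.95). In both probe sets the lowest rat of each of the 7 groups had a low number. In the opposite direction, the mean of the low numbers exceeded that of the high by 0.33 for Clcn2, 0.35 for Clcn6 1389392_at and 0.33 for Clcn7, and for Slc12a5 by 0.0019. The low numbers held 14 rats at the high end of the component (24.5 to 90.1) and 10 rats further down (-33.4 to -4.0). Those 10 overlapped the high numbers (-33.0 to 17.9). Slc12a2 had a mean of 9.64 in the 14, 10.68 in the 10 and 10.56 in the high numbers. For Clcn2 the means were 8.54, 8.40 and 8.15 in that order. Low numbers made up 3 of 8 rats in every dose group and 6 of 12 vehicle rats. The SD over the low numbers was 0.61 for Slc12a2 and 0.57 for Clcn3 1389652_at, against 0.19 and 0.12 over the high numbers. For Clcn5 it was 0.097 in the low numbers and 0.098 in the high. The 14 rats at the high end of the component were less even: 1 of 8 at 0.3 mg/kg deltamethrin and 3 of 8 at 10 mg/kg permethrin. They were 2 of 12 vehicle rats and 2 of 8 in each other group. The mean of the component was lowest at 0.3 mg/kg deltamethrin (-8.8) and highest at 10 mg/kg permethrin (8.6), with -5.4 in vehicle rats. The component and the numbers were then fitted as terms. The component was made from all probe sets and its mean differed between dose groups. Its part in the differences from vehicle, apart from dose, was therefore not tested.

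With the first component as covariate the intervals narrowed, to within 0.5 log2 units of 0 for all 143, and the widest bound was a fold of 1.31, at Clcn4 1369791_at. No member was called (lowest adjusted p = 0.584, limma). Over all probe sets at most 6 of 31042 were called in any comparison of this fit. In this fit 5 of 143 intervals left out 0 before adjustment. Slc12a2 at 100 mg/kg permethrin was -0.15 ± 0.062 (SE) against vehicle, where 2.87% of all probe sets had an unadjusted p under 0.05, and 0.16 ± 0.068 at 3 against 100 mg/kg, where 2.18% did. Clcn3 1389652_at and Clcn6 1389392_at were 0.16 ± 0.064 and 0.14 ± 0.069 at 1 against 1 mg/kg (7.48% of all probe sets), and Clcn7 was 0.090 ± 0.040 for the means over doses (5.73%). Of the permethrin slopes, 1 of 13 had an unadjusted p under 0.05 (2.29% of all probe sets), that of Slc12a2, -0.0013 ± 0.00052 (SE) per mg/kg (limma, adjusted p = 1). The adjusted p of these 5 lay between 0.584 and 1, so none passed the test. With the split of replicate numbers as a block, 1 of 143 had an unadjusted p under 0.05, Clcn6 1389392_at at 10 mg/kg permethrin against vehicle (9.65% of all probe sets). With the split and the component together at most 11 of 31042 probe sets were called in any comparison. None of them was a member (lowest adjusted p of a member = 0.361, limma). Of 143 member values 12 had an unadjusted p under 0.05. Against vehicle these were 1 of 13 at 1 mg/kg permethrin (3.52% of all probe sets), 3 at 10 mg/kg (10.7%) and 1 at 100 mg/kg (3.62%). Between the compounds they were 1 at 3 against 100 mg/kg (2.97%), 1 at 1 against 10 mg/kg (3.8%), 1 at 0.3 against 1 mg/kg (5.76%), 2 at 1 against 1 mg/kg (10.3%) and 2 for the means (6.34%). In that fit 1 permethrin slope (2.98%) and 2 tests of any permethrin dose (6.45%) also had an unadjusted p under 0.05.

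The difference of Slc12a2 between 100 mg/kg permethrin and vehicle was -0.11 ± 0.12 (SE) within the rats of high replicate numbers. Within those of low numbers it was -0.56 ± 0.41, from 3 permethrin and 6 vehicle rats. Of these, 2 of the 3 and 2 of the 6 were at the high end of the component, where Slc12a2 was lower, so the 2 groups were not alike in make-up.

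In the wider set of chloride genes no probe set passed the test in any comparison. Of 71 genes in 5 lists, 61 were measured by 90 probe sets: the other cation chloride cotransporters, the WNK and SPAK kinases that set cotransporter activity, the CLC partner proteins, the other chloride channels (anoctamins, LRRC8, CLIC and tweety proteins) and the anion exchangers with carbonic anhydrases. In limma 0 of 90 were called in any comparison, with or without the component. Over all 31042 probe sets 0 were called in any comparison without the component and at most 6 with it. At an unadjusted p under 0.05 there were 2 of 90 (2.22%) at 3 mg/kg deltamethrin against vehicle, where the share of all probe sets was 1.36%. There were 0 at 100 mg/kg permethrin against vehicle (1.24% of all), 0 at 3 against 100 mg/kg (0.802%) and 0 for the compound means (3.05%). The most in any comparison of means was 3 (3.33%), at 10 mg/kg permethrin against vehicle (3.48% of all). The 2 at 3 mg/kg deltamethrin were Slc12a3, the thiazide-sensitive cotransporter known from the kidney, at -0.15 ± 0.065 (SE), and Slc26a8, an anion transporter known from the testis, at 0.22 ± 0.11 (adjusted p = 1 for both). The medians of the 5 lists lay between -0.063 and 0.039 in the 6 comparisons with vehicle and between -0.042 and 0.063 for the compound means.

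In each list the gene of lowest p stayed small in size. Against vehicle at 3 mg/kg deltamethrin these were, beside Slc12a3 and Slc26a8, the kinase Wnk2 at 0.14 ± 0.095 (SE), the glial adhesion protein Hepacam at 0.11 ± 0.11 and Ttyh3 at -0.12 ± 0.065. At 100 mg/kg permethrin they were Slc12a3 at -0.11 ± 0.065, Wnk1 at 0.070 ± 0.061, Clcn1 at 0.030 ± 0.078, Ano6 at 0.16 ± 0.086 and the carbonic anhydrase Car2 at -0.16 ± 0.094. None of these intervals left out 0 at 100 mg/kg permethrin. For 3 against 100 mg/kg they were Slc12a7 (-0.15 ± 0.12), Wnk1 (-0.10 ± 0.066), Clcn1 (-0.063 ± 0.085), Clic2 (0.19 ± 0.13) and Slc26a2 (-0.092 ± 0.054). For the compound means they were Slc12a7 (-0.10 ± 0.067), Wnk1 (-0.13 ± 0.076), Clcn1 (-0.062 ± 0.049), Clic4 (0.11 ± 0.061) and Slc26a2 (-0.060 ± 0.031), each with a limma adjusted p of 0.932.

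Genes whose values followed those of a member from rat to rat were ranked by Pearson r over the 60 arrays after dose groups, array groups and the first component were taken out, among the brightest probe sets of 14217 genes. For Slc12a5 the nearest were Zfp609 (r = 0.78), Rad23b (0.73) and Bcat1 (0.71). For Slc12a2 they were Akap11 (0.77), Zfr (0.75) and Ddx5 (0.68), and for Clcn2 they were Ddx39b (0.77), Matk (0.75) and Coro6 (0.75). For Clcn3 they were Gnl3l (0.76), Tent4b (0.71) and Aff4 (0.71), and for Clcn4 they were Sh3gl2 (0.78), Opa1 (0.76) and Mapk9 (0.75). No member was among the nearest 3 of another. For Clcn6 they were Efr3b (0.75), Supt5h (0.74) and Dgkz (0.73), for Clcn7 Vps52 (0.80), Clstn2 (0.77) and Ppp2r2c (0.76), and for the dim Clcn5 Ptger2 (0.65), Miox (0.64) and Spmip11 (0.63). These are the highest of many correlations, given as a description, and 8 of the 24 were also among the nearest 3 of the same member when the dose group means alone were taken out.

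The tissue carried the markers of cortex. The mean log2 value over 5 excitatory neuron markers lay between 10.17 and 10.32 in the 7 groups, that over 6 inhibitory neuron markers between 10.23 and 10.35, and that over 7 oligodendrocyte markers between 11.49 and 11.59. The list for choroid plexus, a tissue rich in Slc12a2, had group means between 7.03 and 7.41. Its highest mean was in vehicle rats, with single rats from 6.85 to 9.03. The mean over 5 markers of striatal neurons, which a frontal dissection could include, lay between 9.21 and 9.57. It was lowest at 0.3 mg/kg deltamethrin, where 1 rat was at 7.89, and 7 of 13 member probe sets, Slc12a2 and both of Clcn4 included, had their highest mean in that group. With dose group means taken out, the Pearson r of Slc12a2 over 60 arrays was 0.048 with the choroid plexus list, 0.47 with oligodendrocytes, 0.34 with astrocytes, 0.48 with inhibitory neurons, -0.13 with excitatory neurons, -0.46 with striatal neurons, -0.78 with endothelial cells and -0.84 with microglia. With the component taken out as well, all 8 lay between 0.14 and 0.52, the highest with oligodendrocytes. The part of the striatal, choroid plexus and oligodendrocyte signals in the members' values was not tested either. In whole tissue, fewer cells of a type and less RNA per cell cannot be told apart.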

How the data were processed

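The authors hybridized the RNA of each rat to an Affymetrix whole-genome rat array and deposited log2 values made with RMA (background correction, quantile normalization and summary per probe set); no pooling of rats is described. The deposited table held 31042 probe sets and 60 arrays. There is no sequencing depth here, and the number of arrays and the spread between them set the precision. Quantile normalization makes every array's distribution alike, so a shift of most genes would not be seen. Symbols came from the platform annotation: 20826 probe sets had 1 symbol, 436 several and 9780 none.

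From these values limma 3.58.1 (R 4.3.3) fitted the 7 dose groups without a covariate, with p-values adjusted over the whole table (Benjamini-Hochberg) and a threshold of 0.05. Trends used 36 arrays per compound, vehicle included at dose 0. The methods' penalized regressions were not rerun. Exact permutation tests used scipy 1.17.1. Replicates are separate rats; per the labels they were housed 2 per cage, and which rats shared a cage is not given.

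Members, gene lists and comparisons were chosen with earlier results of these data known. Named were all member probe sets, the list genes of lowest p in 4 comparisons, and the 3 genes most like each member. Alternatives were array group (2 clusters of 14 and 46 arrays along the first principal component of all probe sets), first component or replicate number as a term, renormalization, linear values, a filter on dim probe sets, another prior, fewer arrays and leaving out each array.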

Additional observations from a re-analysis of the deposited data

Results flagged for a closer look

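Of 78 sets of 8 values (13 probe sets in 6 dose groups), 2 had a rat whose gap to the next, as a share of the range of its group, was above Dixon's 95% critical value for groups of 8, where chance gives about 1 in 20, or 3.9. Clcn3 1389652_at was 10.67 in replicate 1 of 0.3 mg/kg deltamethrin, with the next rat at 11.05 (0.639 of the range), and without it the group mean would be 11.14 in place of 11.08. Clcn3 1392453_at was 9.338 in replicate 2 of 10 mg/kg permethrin, with the next rat at 9.92 (0.619 of the range), and without it the mean would be 10.13 in place of 10.03. Both rats had low replicate numbers. The vehicle group of 12 was not examined in this way.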

How the results depend on the processing

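No member probe set was called under any alternative, which covered array group, first component and replicate number as terms, renormalization, linear values, a filter on dim probe sets, a trended prior, fits of only the groups compared, dose rank in place of mg/kg and each array left out (0 of 13 throughout, or 0 of 12 under the filter, which drops Clcn5). Over all probe sets the called count under these terms and filters was also low, at most 6 in any comparison. It was at most 11 of 31042 with the split of replicate numbers and the component together. A count of 0 of 13 therefore does not set the members apart. With single arrays left out, the count over all probe sets is not given. Single member values were taken only for the compound means, 3 against 100 mg/kg, 3 mg/kg deltamethrin against vehicle and 100 mg/kg permethrin against vehicle. Fits within each array group and within low or high replicate numbers were among them. Of 828 such values under the alternatives, 128 changed sign and 0 changed their call. Every one of these values had an interval that held 0 in the fit of the dose groups. With replicate number as a replicate block, 0 of 13 members were called in each comparison, and Slc12a2 at 100 mg/kg permethrin against vehicle was -0.27 ± 0.21 (SE). By the criterion that every pair exceed 0.1, the numbers were not taken to pair the rats: over 168 same-numbered pairs from different groups the correlation of deviations ran from -0.82 to 0.90 with a median of 0.37 (0.0066 over differently numbered pairs), and 56 pairs were at or under 0.1. The split of low against high numbers, alone or with the component, was added after seeing the data. It also called no member. Over all probe sets the called count at 3 mg/kg deltamethrin against vehicle was 0 in the fit of the dose groups, 5 with the first component, 3 with the split and 11 with both. The difference of Slc12a2 between 100 mg/kg permethrin and vehicle ran from -0.34 to -0.089 as single arrays were left out. Slc12a5 and Slc12a2 have 1 probe set each, so their difference with other probe sets was not run.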
